A study of Mus musculus with 40 samples.

Results

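The mRNAs described here encode 10 proteins that inhibit or modulate NF-kB signaling: the cytoplasmic IkB proteins (Nfkbia, Nfkbib, Nfkbie), the nuclear IkB-like proteins (Nfkbiz, Nfkbid, Bcl3), the ubiquitin editor A20 (Tnfaip3) with its partners ABIN-1 and ABIN-3 (Tnip1, Tnip3), and the deubiquitinase CYLD (Cyld). They were picked by name, as the rows of the deposited expression table whose symbol is one of these 10, out of 27179 rows, and each symbol matched exactly 1 row. All 10 passed the filter on low values, with rlog values (regularized log2 counts) between 9.69 and 16.54 in the 40 libraries. The libraries came from bone marrow-derived macrophages (BMDMs) of 4 wildtype (WT) and 4 full Cpeb4 knockout (Cpeb4-/-) mice, all male and of a mixed C57BL/6J and 129 background. Bone marrow cells were grown into macrophages with L-cell conditioned medium as the source of M-CSF. Cells of each mouse were left unstimulated or were given 10 ng/ml E. coli lipopolysaccharide (LPS) for 1, 3, 6 or 9 hr, so that each mouse gave 5 libraries and each genotype and time had 4. The labels put 2 mice of each genotype in each of 2 batches and give a cage for each mouse, and no cage held both genotypes, so genotype and cage cannot be told apart.

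NF-kB dimers are held in the cytoplasm by IkB proteins, which are phosphorylated by the IKK complex and degraded when Toll-like receptor 4 senses LPS. The freed dimers enter the nucleus and switch on many genes, among them those of their own inhibitors, which makes these genes a textbook case of negative feedback. A20, working with the ABIN proteins, and CYLD restrain the pathway upstream by editing or removing ubiquitin chains, while the nuclear IkB-like proteins bind p50 or p52 on DNA and can raise or lower the transcription of selected targets. CPEB4 is an RNA-binding protein that recognizes U-rich cytoplasmic polyadenylation elements in 3′-UTRs.

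The promoter windows of most of these genes held a kB site by sequence, and the ones shown are those of Nfkbia, the member with the highest level, and of A20 and both ABIN partners. RefSeq windows (build GRCm38.p6, from 250 bases before to 50 after each start) were found for 9 of the 10 members (all but Nfkbiz), with 12 starts in all. The kB consensus decamer, searched by name on both strands, was present in 8 of the 12 windows and in 8 of the 9 members, whereas 4.51% of all 32851 windows of this length held at least 1. Nfkbib had none, and the match of Bcl3 lay just inside the transcript, at position 2 from the start. The stretches below lie upstream of the start, 5′ to 3′ on the strand of the gene, with the matches in capitals.
Nfkbia, chr12:55492648-55492797, minus strand, match from position -29: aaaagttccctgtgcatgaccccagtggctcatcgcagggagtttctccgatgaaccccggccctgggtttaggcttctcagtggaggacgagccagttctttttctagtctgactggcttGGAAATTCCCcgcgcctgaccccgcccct
Tnfaip3, chr10:19015411-19015560, minus strand, matches from positions -125 and -12: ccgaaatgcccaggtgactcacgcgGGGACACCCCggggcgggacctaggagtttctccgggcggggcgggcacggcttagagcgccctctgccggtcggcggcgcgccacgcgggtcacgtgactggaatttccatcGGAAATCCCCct
Tnip1, chr11:54962941-54963090, minus strand, 3 overlapping matches from position -58: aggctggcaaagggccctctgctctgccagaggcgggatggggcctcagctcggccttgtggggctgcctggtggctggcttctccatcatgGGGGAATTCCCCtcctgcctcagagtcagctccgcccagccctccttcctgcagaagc
Tnip3, chr6:65590248-65590397, plus strand, match from position -54: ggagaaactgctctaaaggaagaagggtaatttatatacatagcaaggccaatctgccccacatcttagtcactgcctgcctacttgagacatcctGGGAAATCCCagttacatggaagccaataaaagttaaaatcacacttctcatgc
A match of letters is not a binding site, and no binding was measured.

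Cpeb4 itself, given 1 value per gene, separated the genotypes only at 6 hr. There it was 10.09 to 10.67 in the 4 WT libraries and 8.74 to 9.66 in the 4 Cpeb4-/- libraries, a difference of -1.27 ± 0.19 (log2, SE; adjusted p = 0.00114). At 0, 1, 3 and 9 hr the ranges overlapped, so at those times the level of this gene does not check the labels, and the table does not show which exons the reads came from. All 8 macrophage markers (Adgre1, Csf1r, Cd68, Itgam, Lyz2, Cd14, Fcgr1, Mertk) were well above the filter in every library. Their summed level was lower in Cpeb4-/- at each time, at 18.92 to 19.14 against 19.24 to 19.32 in WT at 6 hr and 18.94 to 19.14 against 19.22 to 19.28 at 9 hr (log2 of the sum). Of the 8, 4 were called lower at 6 hr (Lyz2, Fcgr1, Cd68 and Csf1r) and 3 at 9 hr (Cd14, Fcgr1 and Cd68), and none was called higher at these times, where 9.92% and 3.22% of all genes were lower. Of the 23 markers of other cell types, only S100a8 and S100a9 (neutrophils) and Zbtb46, Xcr1 and Clec9a (dendritic cells) passed the filter. The dendritic cell sum overlapped between genotypes at 6 hr but was 6.09 to 6.14 in Cpeb4-/- against 6.24 to 6.64 in WT at 9 hr. No B and T cell, erythroid, fibroblast, or mast cell and basophil marker passed the filter, Hba-a1 and Hbb-bs were at 0 in every library, and Ly6g, which marks neutrophils, was below 0. In bulk RNA, fewer cells of a type and less RNA per cell cannot be told apart, and the part of these marker shifts in the genotype differences below was not tested.

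LPS raised 9 of the 10 mRNAs in WT cells within 1 hr and all 10 in Cpeb4-/- cells. Over all genes, 17.3% rose in WT and 23.8% in Cpeb4-/- at this step (limma, adjusted p under 0.05). The member not called in WT was Cyld, whose rise in Cpeb4-/- (0.15 ± 0.05) was lost under quantile normalization and in 3 of the 4 fits without 1 Cpeb4-/- mouse (mouse 3, 55 or 62). The median change of the 10 members from 0 to 1 hr was 1.84 in WT and 1.76 in Cpeb4-/-, against 0.02 in each genotype over all genes tested. Differences are log2 differences of rlog values throughout.

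**Figure D1:**
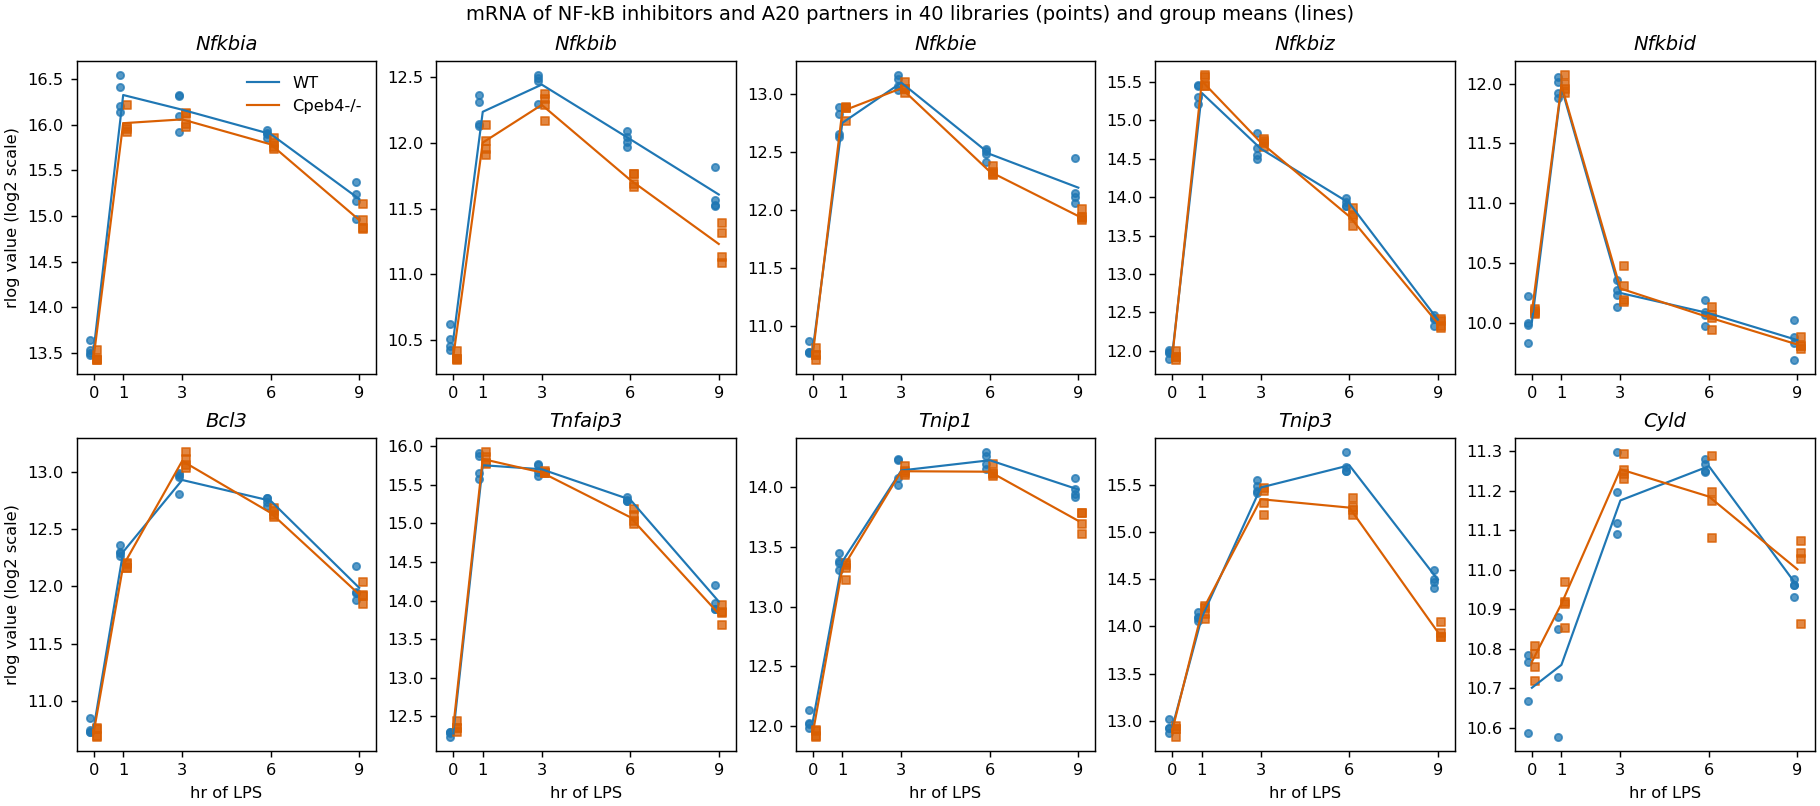
rlog value (log2 scale, y axis, each panel with its own range) of the 10 mRNAs against hours of LPS (x axis), with 1 point per library (circles WT, squares Cpeb4-/-, 4 per group) and lines through the group means. Nfkbid, Nfkbiz and Tnfaip3 had their highest group mean at 1 hr in both genotypes, while that of Tnip3 was highest at 6 hr in WT (15.71) and at 3 hr in Cpeb4-/- (15.35).

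Among the cytoplasmic IkB mRNAs, Nfkbia responded most. Nfkbia (Entrez 18035, chr12:55489410-55492647) encodes IkB-alpha, the main short-lived inhibitor of p65-containing dimers. It went from 13.48 to 13.64 in the 4 unstimulated WT libraries to 16.14 to 16.54 at 1 hr, a rise of 2.79 ± 0.10 (adjusted p = 3.15e-15), or 6.92-fold, and of 2.56 ± 0.07 in Cpeb4-/-. Nfkbib (Entrez 18036, chr7:28758251-28767512), which encodes IkB-beta, rose by 1.74 ± 0.07 in WT and 1.64 ± 0.06 in Cpeb4-/- in the first hour. Nfkbie (Entrez 18037, chr17:45555703-45563169), which encodes IkB-epsilon, rose by 1.95 ± 0.07 and 2.09 ± 0.04. Both of them rose again between 1 and 3 hr, Nfkbib by 0.21 in WT and 0.29 in Cpeb4-/-, and Nfkbie by 0.35 and 0.20. This second rise depended on scaling: under quantile normalization it was -0.04 for Nfkbib and 0.04 for Nfkbie in WT and 0.08 and -0.07 in Cpeb4-/-, none of them called. In WT the second rise of Nfkbib was also lost without mouse 25 or 69.

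The nuclear IkB-like mRNAs followed 3 different courses. Nfkbiz (Entrez 80859, chr16:55811375-55838899) encodes IkB-zeta, a coactivator of secondary response genes such as Il6. It rose from 11.89 to 12.01 unstimulated to 15.21 to 15.46 at 1 hr in WT, by 3.39 ± 0.07 (10.5-fold), and by 3.59 ± 0.05 (12.0-fold) in Cpeb4-/-, then lost 0.73 and 0.80 by 3 hr. Nfkbid (Entrez 243910, chr7:30421732-30428746), which encodes IkBNS, peaked more sharply: after a rise of 1.96 ± 0.08 in WT it fell by 1.72 ± 0.08 from 1 to 3 hr, and in Cpeb4-/- the steps were 1.89 and -1.70. Bcl3 (Entrez 12051, chr7:19808462-19822770), which encodes a partner of p50 and p52 homodimers, built up for longer, by 1.53 ± 0.06 in the first hour and by a further 0.63 ± 0.06 to 3 hr in WT, and by 1.45 and 0.91 in Cpeb4-/-.

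A20 mRNA had its highest group mean at 1 hr, and its partners rose on to 3 hr. Tnfaip3 (Entrez 21929, chr10:19000910-19015657) went from 12.24 to 12.30 unstimulated to 15.57 to 15.92 at 1 hr in WT, a rise of 3.47 ± 0.07 (11.1-fold), and by the same 3.47 ± 0.05 in Cpeb4-/-. In WT the levels of Tnfaip3 at 1 and 3 hr were not told apart (-0.05 ± 0.07, adjusted p = 0.549). From 1 to 3 hr it fell in WT mice 25 and 69 (-0.26 and -0.10) and rose in WT mice 88 and 87 (0.10 and 0.04). Tnip1 (Entrez 57783, chr11:54910785-54962917), whose product ties A20 to ubiquitinated IKK, rose by 1.34 ± 0.05 to 1 hr and by 0.76 ± 0.05 more to 3 hr in WT. Tnip3 (Entrez 414084, chr6:65525313-65634040), which encodes the LPS-inducible ABIN-3, rose by 1.16 ± 0.05 to 1 hr and by 1.38 ± 0.05 to 3 hr. In Cpeb4-/- these steps were 1.38 and 0.82 for Tnip1 and 1.25 and 1.19 for Tnip3. Cyld (Entrez 74256, chr8:88697028-88751945) hardly moved: its group means lay between 10.70 and 11.26, its difference from 0 to 1 hr in WT was 0.06 ± 0.06 (adjusted p = 0.51), and its called rise came between 1 and 3 hr (0.42 ± 0.06 in WT, 0.34 ± 0.05 in Cpeb4-/-).

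Between 1 and 3 hr, 6 of the 10 members rose in each genotype, against 28.0% of all genes in WT and 30.5% in Cpeb4-/-. Members that fell in that interval numbered 2 in WT (Nfkbiz and Nfkbid, against 32.1% of all genes) and 3 in Cpeb4-/- (also Tnfaip3, by 0.17 ± 0.05, against 33.5% of all genes). The fall of Tnfaip3 was lost without Cpeb4-/- mouse 62. Between 3 and 6 hr, 6 members fell in WT (background 30.4%) and 7 in Cpeb4-/- (background 32.1%), Nfkbid being the one added. Nfkbid in WT had a difference of -0.17 there (adjusted p = 0.066), which passed with the mouse as a replicate block (adjusted p = 0.0353). In WT the fall of Nfkbia was lost without mouse 25 or 87, and that of Bcl3 without mouse 25. Under quantile normalization more members were called falling from 3 to 6 hr. In WT this was Tnip1 (-0.23, adjusted p = 0.00129). In Cpeb4-/- these were Tnip1 (-0.29), Tnip3 (-0.20) and Cyld (-0.15). Between 6 and 9 hr all 10 fell in both genotypes (background 27.9% in WT and 28.0% in Cpeb4-/-), most of all Nfkbiz (by 1.52 in WT and 1.39 in Cpeb4-/-), Tnfaip3 (by 1.32 and 1.25) and Tnip3 (by 1.21 and 1.32). Under quantile normalization the fall of Tnip1 in WT turned to 0.06, and Nfkbie and Nfkbid in WT and Cyld in Cpeb4-/- were no longer called. The fall of Nfkbid in WT was also lost without mouse 87 or 88.

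At 9 hr most of the 10 mRNAs had not come back to the unstimulated level. In WT 9 of 10 were still higher than at 0 hr (background 35.9%), and in Cpeb4-/- 9 of 10 were higher (background 36.4%) and Nfkbid was lower, by 0.27 ± 0.06. Tnip1 kept the most of its rise, being 1.94 ± 0.05 above 0 hr in WT, which is 88.8% of its log2 rise to the peak, and 81.1% in Cpeb4-/-. Tnip3 kept 56.3% in WT and 42.4% in Cpeb4-/-, Tnfaip3 49.2% and 42.3%, and Nfkbiz, with the lowest share after Nfkbid, was 0.44 ± 0.07 above 0 hr in WT and 0.43 ± 0.05 in Cpeb4-/-. This remainder of Nfkbiz and that of Cyld (0.26 and 0.23) was not called under quantile normalization, and Nfkbid in WT was then called lower than at 0 hr (-0.24).

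The question put by the design is how these courses differ without CPEB4. Before 6 hr no member passed the test between genotypes in the fits of the 8 libraries of a time, whereas a fit of all 40 libraries with the mouse as a replicate block called 4 members at 1 hr (Nfkbia, Nfkbib, Nfkbiz and Cyld) and Bcl3 at 3 hr. In the fits of the 8 libraries the background at 0, 1 and 3 hr was 1.31%, 1.91% and 3.68% of all genes tested. The fit with the replicate block called 4323 of 13103 genes at 1 hr and 1393 at 3 hr, which is the background of its calls. At 6 hr 5 of the 10 members were lower in Cpeb4-/- and none higher, where 16.3% of all genes were called in either direction and 9.92% were lower. Under quantile normalization 2 of the 10, Tnip3 and Nfkbib, were called at 6 hr. At 9 hr 3 of the 10 were lower and none higher, where 7.91% of all genes were called and 3.22% were lower. The 4 Cpeb4-/- libraries lay wholly below the 4 WT libraries for 6 members at 6 hr (12.0% of all genes) and for 4 members at 9 hr (8.51% of all genes). The median genotype difference of the 10 members was -0.13 at 6 hr and -0.19 at 9 hr, against -0.02 and 0.00 over all genes.

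**Figure D2:**
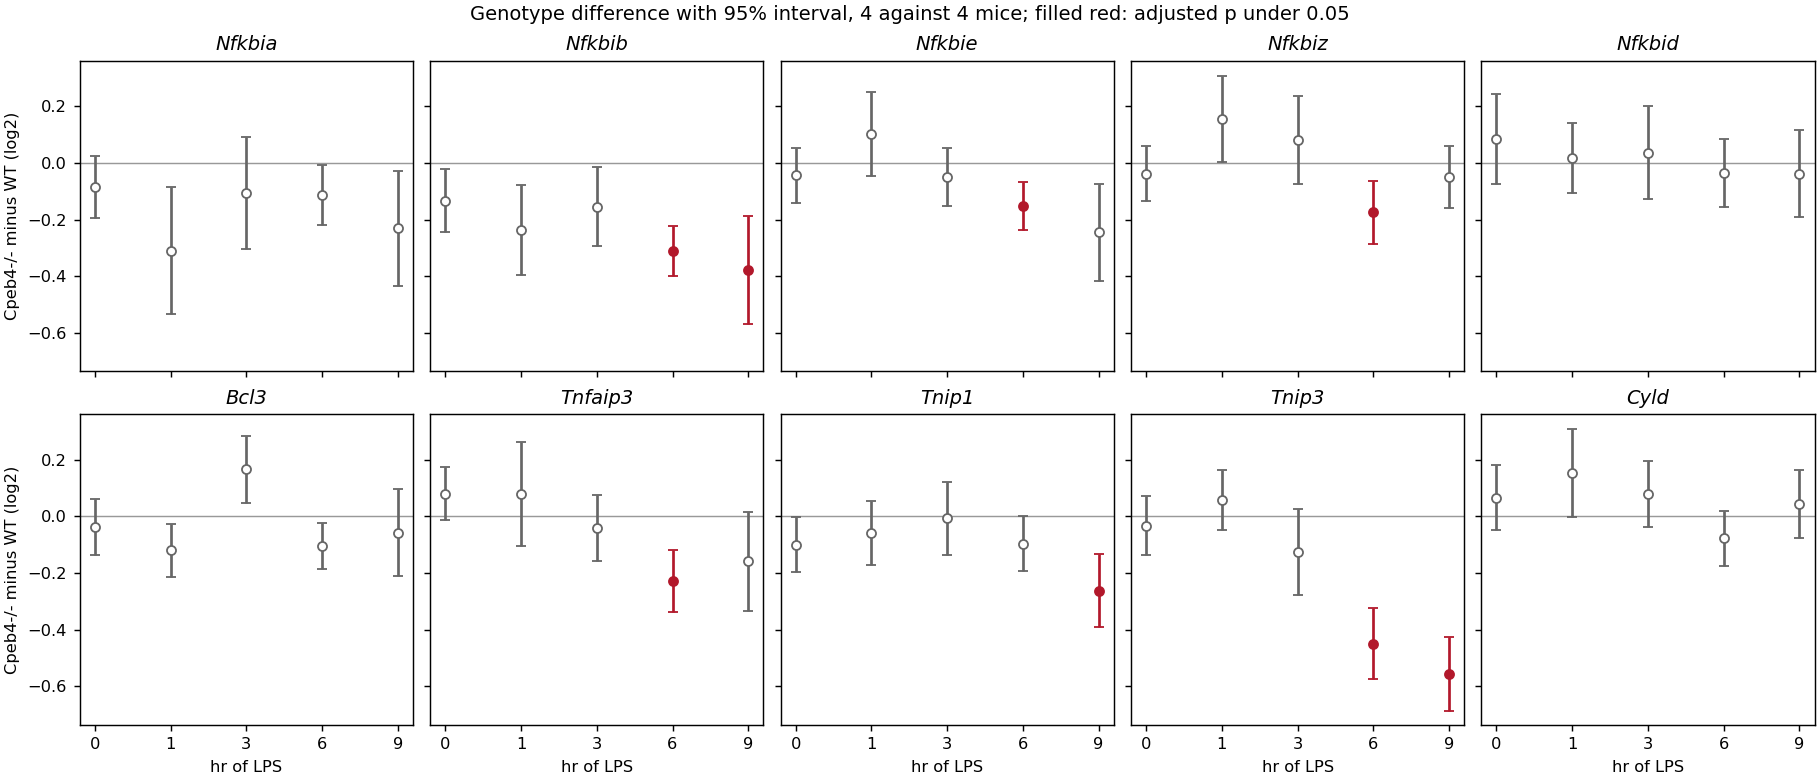
Cpeb4-/- minus WT difference (log2, y axis) of each mRNA at 0, 1, 3, 6 and 9 hr of LPS (x axis, evenly spaced), as the limma estimate with its 95% interval from 4 against 4 mice, where filled red points have an adjusted p under 0.05. Tnip3 moves from -0.12 at 3 hr to -0.45 at 6 hr and -0.56 at 9 hr, and no point before 6 hr is filled.

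Tnip3 differed most between the genotypes. At 6 hr its values were 15.69, 15.85, 15.64 and 15.65 in WT mice 25, 88, 69 and 87. They were 15.24, 15.18, 15.26 and 15.36 in Cpeb4-/- mice 3, 62, 2 and 55. The groups did not overlap, and the difference of -0.45 ± 0.06 (adjusted p = 0.000661) put the Cpeb4-/- level at 73.3% of WT. At 9 hr the WT values were 14.50, 14.40, 14.60 and 14.47 and the Cpeb4-/- values 13.93, 13.88, 13.89 and 14.05, in the same order of mice. Again every Cpeb4-/- library lay below every WT library, with a difference of -0.56 ± 0.06 (adjusted p = 0.00100), or 68.0% of WT. Within batches 1 and 2 the differences were -0.56 and -0.34 at 6 hr and -0.54 and -0.57 at 9 hr. Both calls held in every alternative fit. At 3 hr the groups overlapped, at 15.42 to 15.55 in WT and 15.18 to 15.47 in Cpeb4-/-.

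The change of the genotype difference with time was tested in 1 model of all 40 libraries. Relative to 0 hr, the Tnip3 difference at 6 hr was larger by -0.42 ± 0.08 (adjusted p = 0.00165) and at 9 hr by -0.52 ± 0.08 (adjusted p = 0.000161), and Tnip3 was the only member called at either time, where 2.94% and 1.76% of all genes were called. At 1 and 3 hr no member was called (0.00763% and 0.206% of all genes). For Tnfaip3 the change from 0 to 6 hr was -0.31 ± 0.09 (adjusted p = 0.0532), which passed with the mouse as a replicate block (adjusted p = 0.0121). Part of it lay at 0 hr, where the Cpeb4-/- libraries were all above the WT libraries for Tnfaip3, by an uncalled 0.08 ± 0.04 (adjusted p = 0.341). A contrast added after the values were seen compared 6 hr with 3 hr, and called Tnip3 (-0.32 ± 0.08, adjusted p = 0.0301) and Bcl3 (-0.27 ± 0.07, adjusted p = 0.0393), where 0.923% of all genes were called. The Bcl3 call was lost under quantile normalization (adjusted p = 0.112), and leaving out single mice ended it in 7 of 8 fits and that of Tnip3 in 6 of 8.

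**Figure D3:**
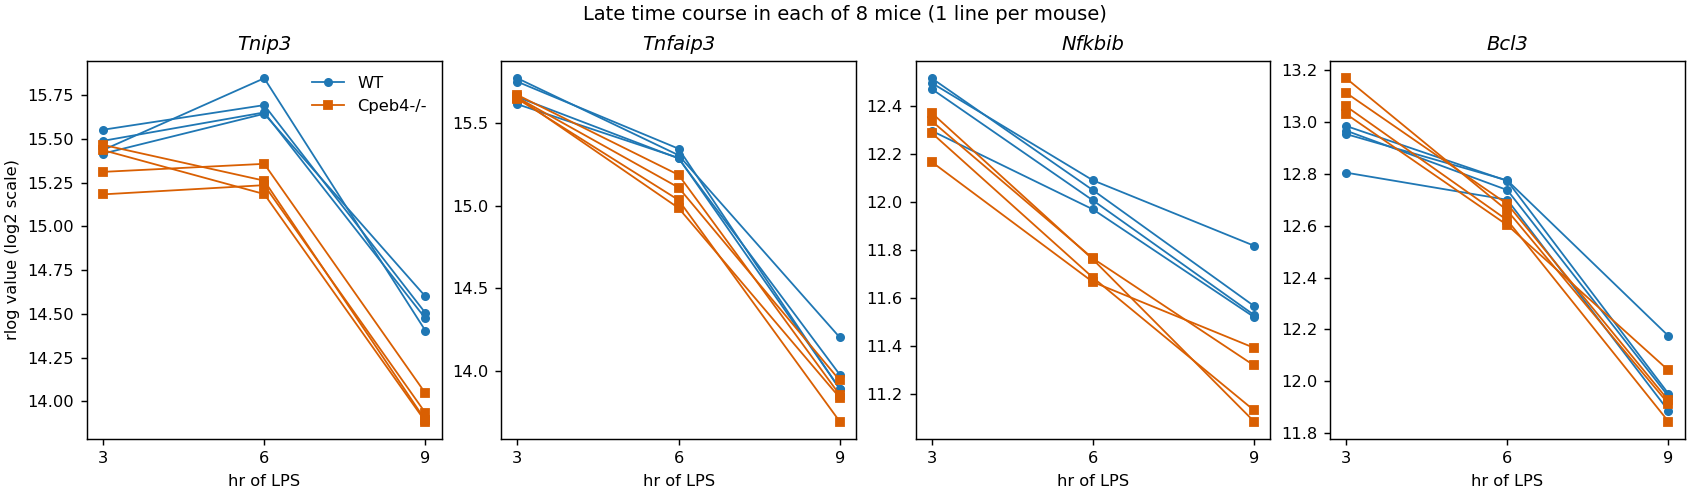
rlog value (log2 scale, y axis) of Tnip3, Tnfaip3, Nfkbib and Bcl3 at 3, 6 and 9 hr of LPS (x axis), with 1 line per mouse (4 WT mice in blue circles, 4 Cpeb4-/- mice in orange squares). Tnip3 went up from 3 to 6 hr in each WT mouse, by 0.14 to 0.41, and ran from -0.25 to 0.05 in the Cpeb4-/- mice.

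The late course of Tnip3 was followed within mice. From 3 to 6 hr it changed by 0.14, 0.41, 0.23 and 0.16 in WT mice 25, 88, 69 and 87, and by 0.05, -0.25, -0.20 and 0.05 in Cpeb4-/- mice 3, 62, 2 and 55. The limma test of this step compared group means and did not pair libraries by mouse. Its spread was pooled over all times of a genotype. It gave a called rise of 0.24 ± 0.05 in WT (adjusted p = 0.000679) and an uncalled -0.09 ± 0.06 in Cpeb4-/- (adjusted p = 0.176). Quantile normalization moved both steps down, to 0.07 (adjusted p = 0.232) and -0.20 (adjusted p = 0.000400). Under it the contrast between the genotypes, also not paired by mouse, stayed called (-0.28, adjusted p = 0.0374).

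A20 mRNA was called lower in Cpeb4-/- only at 6 hr. Tnfaip3 was 15.29, 15.35, 15.31 and 15.29 in WT mice 25, 88, 69 and 87 and 15.11, 14.99, 15.03 and 15.19 in Cpeb4-/- mice 3, 62, 2 and 55. The groups were apart, by -0.23 ± 0.05 (adjusted p = 0.0105; 85.4% of WT), with -0.27 and -0.19 within batches 1 and 2. At 9 hr the groups overlapped and the difference was -0.16 ± 0.08 (adjusted p = 0.226), with -0.04 and -0.27 within batches. The call at 6 hr was lost under quantile normalization, where the difference was -0.11 (adjusted p = 0.152). The partner Tnip1 was called at the later time: at 9 hr it was 13.94, 13.91, 14.07 and 13.99 in WT against 13.78, 13.69, 13.61 and 13.79 in Cpeb4-/-, in the same order of mice. No Cpeb4-/- value reached the WT range, the difference was -0.26 ± 0.06 (adjusted p = 0.0238; 83.4% of WT), and within batches it was -0.19 and -0.33. Tnip1 was also wholly below WT in unstimulated cells, by -0.10 ± 0.04 (adjusted p = 0.278), and its change from 0 to 9 hr was not called (-0.16, adjusted p = 0.279). The call was lost without Cpeb4-/- mouse 62 or WT mouse 25, 69 or 87 and without the filter on low values (adjusted p = 0.0599). At 6 hr the Tnip1 difference was -0.10 ± 0.04 (adjusted p = 0.168) and turned to 0.01 under quantile normalization. Cyld was not called at any time, its differences lying between -0.08 and 0.15.

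Among the cytoplasmic IkB mRNAs, Nfkbib was lower in Cpeb4-/- at both late times. At 6 hr it was 12.01, 11.97, 12.09 and 12.05 in WT mice 25, 88, 69 and 87 and 11.68, 11.76, 11.67 and 11.76 in Cpeb4-/- mice 3, 62, 2 and 55. These groups did not overlap and differed by -0.31 ± 0.04 (adjusted p = 0.000709; 80.7% of WT), with -0.27 and -0.35 within batches. At 9 hr the values were 11.53, 11.52, 11.82 and 11.57 against 11.13, 11.08, 11.39 and 11.32, again apart, by -0.38 ± 0.09 (adjusted p = 0.0264), with -0.42 and -0.34 within batches. Nfkbib was also the member with the lowest unstimulated difference, -0.13 ± 0.05 (adjusted p = 0.221), with all 4 Cpeb4-/- libraries below all 4 WT libraries before any LPS. Its change from 0 hr to 6 or 9 hr was not called (adjusted p = 0.388 and 0.234). The call at 9 hr was lost in 5 of the 8 fits that left out 1 mouse (Cpeb4-/- mice 3 and 62, WT mice 25, 69 and 87).

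Nfkbie was called lower at 6 hr, at 12.50, 12.41, 12.52 and 12.48 in WT against 12.30, 12.31, 12.33 and 12.38 in Cpeb4-/-, in the order of mice used above. The difference of -0.15 ± 0.04 (adjusted p = 0.0197; 90.0% of WT) was -0.15 within either batch. It was lost without Cpeb4-/- mouse 2 or 3 or WT mouse 25 or 69 and under quantile normalization (-0.09, adjusted p = 0.116), and a fit of all 40 libraries gave adjusted p = 0.0637. At 9 hr Nfkbie differed by -0.24 ± 0.08 (adjusted p = 0.0778), the groups not overlapping, and the mouse as a replicate block in a fit of all 40 libraries gave adjusted p = 0.00123. Nfkbia, the member with the highest level, was not called at any time in the fits of all 8 libraries of a time, but was called at 1 hr without WT mouse 69 and at 9 hr without Cpeb4-/- mouse 2. Its largest difference was at 1 hr, where the WT values of 16.14 to 16.54 overlapped the Cpeb4-/- values of 15.93 to 16.22 and the difference of -0.31 ± 0.10 had an adjusted p of 0.091. With all 40 libraries and the replicate block this 1 hr difference passed (adjusted p = 0.0109), as did those of Nfkbib (-0.24, adjusted p = 0.0154), Nfkbiz (0.16, adjusted p = 0.0487) and Cyld (0.15, adjusted p = 0.0313). That fit called 4323 genes at 1 hr against 251 in the fit of the 8 libraries.

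The nuclear IkB-like mRNAs differed little between genotypes. Nfkbiz at 6 hr was 13.88, 13.99, 13.88 and 13.93 in WT against 13.77, 13.62, 13.74 and 13.86 in Cpeb4-/-. These values were apart, but by only -0.17 ± 0.05 (adjusted p = 0.0382; 88.6% of WT), with -0.24 and -0.11 within batches. This was the least stable of the calls: it was lost in 7 of the 8 fits without 1 mouse (in all but the fit without Cpeb4-/- mouse 55), under quantile normalization (-0.06), without the filter on low values and with batch as a covariate. For Bcl3 at 1 hr every Cpeb4-/- library lay below every WT library, by an uncalled -0.12 ± 0.04 (adjusted p = 0.0992). Bcl3 at 3 hr was 12.97, 12.80, 12.95 and 12.98 in the WT mice against 13.06, 13.17, 13.03 and 13.11 in the Cpeb4-/- mice. By 6 hr the order had turned back, with 12.74, 12.70, 12.77 and 12.77 in WT and 12.62, 12.66, 12.60 and 12.68 in Cpeb4-/-. The groups were apart at 3 and 6 hr in opposite directions, by 0.17 ± 0.05 (adjusted p = 0.109) and -0.10 ± 0.04 (adjusted p = 0.0747), and neither difference was called. In the fit of all 40 libraries with the replicate block the 3 hr difference of Bcl3 passed (adjusted p = 0.021). Within batches 1 and 2 Bcl3 differed by 0.23 and 0.10 at 3 hr and by -0.08 and -0.13 at 6 hr. Nfkbid differed by -0.04 to 0.08 over the 5 times, overlapped between genotypes at each of them, and had a 95% interval of -0.15 to 0.09 at 6 hr.

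The fall from each mouse's own peak to 9 hr was compared between genotypes with a two-sided exact permutation test of 4 against 4 mice, whose smallest possible p is 0.0286. Only Nfkbiz and Tnip1 reached that smallest p among the 10 tests made. For Nfkbiz the fall was -2.95 ± 0.11 (SD) in WT and -3.16 ± 0.08 in Cpeb4-/-, and for Tnip1 it was -0.27 ± 0.08 against -0.44 ± 0.07. Neither passed Benjamini-Hochberg adjustment over the 10 tests. The falls of Tnip3 were -1.21 ± 0.17 and -1.43 ± 0.15 (exact p = 0.143, 4 mice each), and those of Tnfaip3 differed by -0.20 (exact p = 0.0857, 4 mice each).

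Per exon length the members spanned a wide range of levels. On the scale of rlog minus log2 of the exon length in kb (GENCODE vM21), unstimulated WT cells had Nfkbia highest (12.88 ± 0.07, SD, n = 4), then Tnip3 (10.92 ± 0.06), Tnip1 (10.44 ± 0.07) and Tnfaip3 (10.08 ± 0.03), with Cyld lowest (7.67 ± 0.09). The libraries of Nfkbiz (9.84 to 9.96) and Bcl3 (9.85 to 9.96) overlapped, as did those of Nfkbie and Nfkbib. At 1 hr Tnfaip3 (13.55 ± 0.17) and Nfkbiz (13.31 ± 0.12) came after Nfkbia (15.67 ± 0.19) with overlapping libraries, and at 6 hr Tnip3 (13.69 ± 0.09) was above Tnfaip3 (13.11 ± 0.03) with no overlap.

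**Figure D4:**
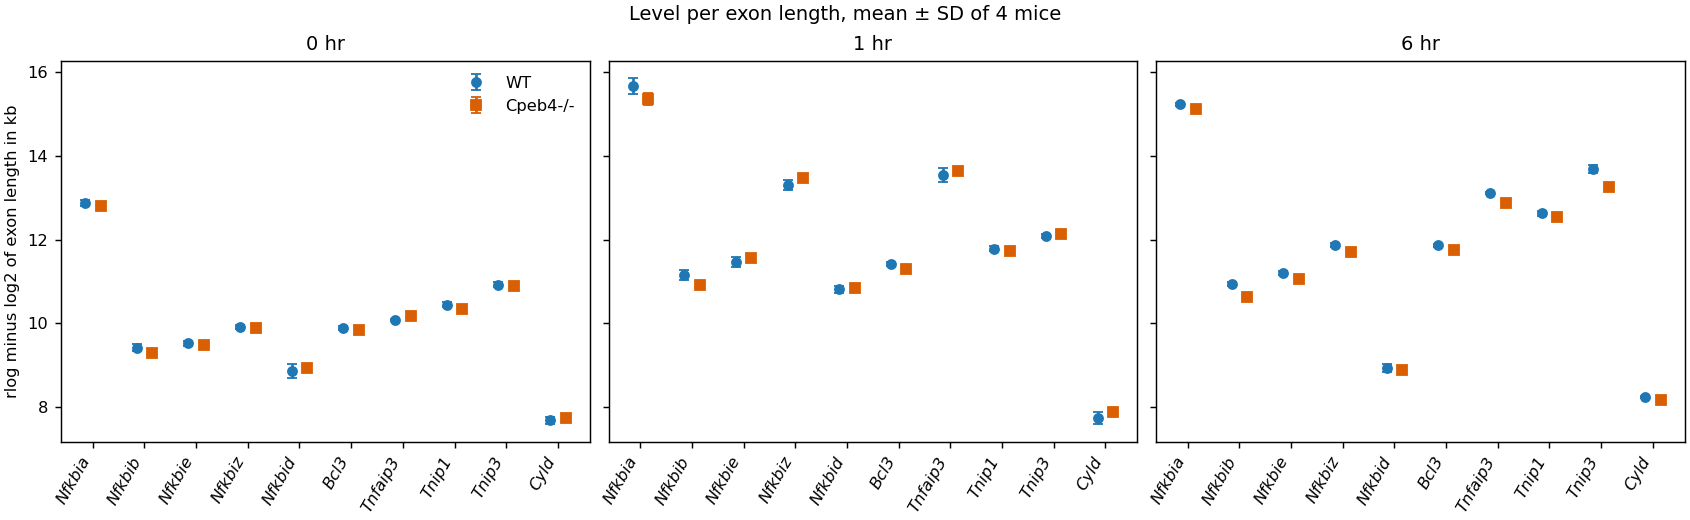
Level per exon length (rlog minus log2 of the exon length in kb, y axis) of the 10 mRNAs (x axis) at 0, 1 and 6 hr of LPS, as mean ± SD of 4 mice for WT (circles) and Cpeb4-/- (squares). Nfkbia is highest in each panel and Cyld lowest, and Tnip3 moves from 12.08 at 1 hr to 13.69 at 6 hr in WT.

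Over the 10 group means, several members ran nearly in parallel. Nfkbia and Tnfaip3 had a Pearson r of 0.987, as did Nfkbib and Nfkbie, whereas Nfkbid was unlike Tnip3 (r = -0.08) and Tnip1 (r = -0.07). These are descriptions over 10 means that share mice and libraries. Among 6041 genes whose means span at least 1 rlog unit, up to 3 nonmembers most like each member are given. They were Gadd45b, Rnf19b and Ccrl2 for Nfkbia, Relb, Rela and Prag1 for Nfkbib, and Prag1, Relb and Tlr2 for Nfkbie. For the nuclear IkB-like mRNAs they were Nxpe3, Pnrc1 and Cxcl2 (Nfkbiz), Tmem88, Ier5 and Dusp8 (Nfkbid), and Dnah17 and Stx11 (Bcl3). For A20 and its partners they were Psd, Dusp2 and Gm14636 (Tnfaip3), P2ry2, Srgn and Fas (Tnip1), and Gramd1a, Cd69 and Rnf14 (Tnip3). The highest r of a member ran from 0.984 (Nfkbid with Tmem88) to 0.997 (Nfkbia with Gadd45b). Cyld did not span 1 unit and was not compared.

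The 3′-UTRs of the members were read for 2 kinds of motif, the AUUUA pentamer of AU-rich elements and the cytoplasmic polyadenylation element (CPE), counted as UUUUAU or UUUUAAU. The study's own set of CPE motifs is wider, and its further variants were not counted here. In the GENCODE coding transcript with the longest 3′-UTR, 69.2% of 11964 expressed genes held at least 1 AUUUA and 61.7% at least 1 CPE. Cyld held the most, with 12 AUUUA and 14 CPE in 4932 bases, and 1.04% of those genes had as many CPE. Tnip3 held 3 AUUUA and 7 CPE in 2932 bases (8.23% had as many CPE), Nfkbiz 4 and 3 in 1355 bases, and Tnfaip3 5 and 1 in 1821 bases. Nfkbia held 2 of each in 512 bases, Nfkbie no AUUUA and 1 CPE, and Nfkbid 1 AUUUA and no CPE. Nfkbib, Bcl3 and Tnip1 held neither motif. Of the 6 members called lower in Cpeb4-/- at 6 or 9 hr, 4 held a CPE of these forms (61.7% of expressed genes did). The other 2 (Nfkbib and Tnip1) did not, and Cyld, with the most, was not called. The 30-base windows shown were chosen by the call at 6 hr and belong to 3 of these 4 members with a CPE, all but Nfkbie. Windows of the other members, Cyld among them, are not shown. The windows are given on the strand of the gene (mm10), with T for U and the motifs in capitals.
Tnip3, chr6:65631694-65631723, plus strand: aaactacatgaaTTTTAATagacaatcaaa
Tnfaip3, chr10:19001753-19001782, minus strand: ttATTTAttatgaacttccaagttATTTAa
Nfkbiz, chr16:55811866-55811895, minus strand: ctgTTTTATgaatcacctcttagATTTAtg
The Tnfaip3 window holds 2 AUUUA and no CPE, the Nfkbiz window 1 of each motif and the Tnip3 window 1 CPE. These libraries do not show whether CPEB4 bound any of them.

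Other genes of the pathway were read from lists by the same tests. Over all genes, 17.3% rose in WT in the first hour, and at 6 hr 16.3% were called between genotypes and 9.92% were lower in Cpeb4-/-, against which the counts of each list are to be read. Single genes of these lists were not retested under quantile normalization or the other alternatives, so how far their calls depend on scaling was not tested. All 5 NF-kB subunit genes rose in WT in the first hour, led by Rel (2.31 ± 0.14), Relb (1.23 ± 0.06) and Nfkb2 (1.10 ± 0.06). At 6 hr Nfkb1, the p50 precursor, was higher in Cpeb4-/- (0.21 ± 0.05, adjusted p = 0.0139) and Rela, p65, lower (-0.14 ± 0.04, adjusted p = 0.0181), while the other 3 were not called. Of 9 IKK subunits and upstream kinases, 5 rose and 1 fell in the first hour in WT (Ikbke by 0.58, Tab2 by 0.28 and Tab1 by -0.37), and only Ikbke was called at 6 hr, lower in Cpeb4-/- (-0.26 ± 0.05, adjusted p = 0.00396). None of 5 other A20-associated proteins was called at 6 hr, and 3 of them rose in the first hour (N4bp1 by 0.75, Tax1bp1 by 0.27 and Rnf11 by 0.19).

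Of 7 genes listed under the linear ubiquitin ligase and deubiquitinases, not all of them tied to the ligase, 5 were lower in Cpeb4-/- at 6 hr (9.92% of all genes) and none higher, with a list median of -0.18 against -0.02 over all genes. They included Usp18 (-0.45 ± 0.06, adjusted p = 0.000595), Rnf31, the catalytic subunit of the ligase (-0.33 ± 0.05, adjusted p = 0.000879), and Spata2, which joins CYLD to the ligase (-0.23 ± 0.05, adjusted p = 0.00694). In the first hour Spata2 rose by 0.51 and Rnf31 fell by 0.20 in WT, and the other 5 were not called. Among 7 TRAF, RIPK and related genes on which A20 and CYLD act, 6 rose in the first hour in WT (17.3% of all genes), led by Ripk2 (1.89), Birc3 (1.56) and Malt1 (1.37). At 6 hr 4 of these 7 were lower (9.92% of all genes) and none higher (list median -0.15), among them Ripk2 (-0.28 ± 0.08), Traf2 (-0.21 ± 0.04) and Birc2 (-0.19 ± 0.04). Of 6 other genes that restrain NF-kB, Nkiras2 was the 1 called in the first hour in WT, falling by 0.36, and the 1 called between genotypes at 6 hr, lower in Cpeb4-/- (-0.25 ± 0.08, adjusted p = 0.0475).

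The 8 cytokine targets of NF-kB had calls in both directions between genotypes. All 8 rose in the first hour in WT, led by Cxcl1 (5.45 ± 0.12), Cxcl2 (4.95 ± 0.11) and Tnf (4.36 ± 0.07). At 6 hr Cxcl1 was higher in Cpeb4-/- (0.70 ± 0.10, adjusted p = 0.00103), Tnf was lower (-0.35 ± 0.06, adjusted p = 0.00236) and the other 6 were not called. Of 4 genes known to need IkB-zeta, 3 rose in the first hour in WT (Il12b by 3.33, Il6 by 1.98 and Csf3 by 1.91). At 6 hr Il6 (0.48 ± 0.13, adjusted p = 0.0206) and Csf3 (0.37 ± 0.07, adjusted p = 0.00593) were higher in Cpeb4-/- and Il12b lower (-0.53 ± 0.16, adjusted p = 0.0451), beside Nfkbiz itself at 88.6% of WT. At 9 hr 1 gene each of the NF-kB subunits, the IKK list, the TRAF and RIPK list and the IkB-zeta list was lower in Cpeb4-/-, 2 of the ubiquitin ligase and deubiquitinase list and 3 of the cytokines were, and none of the genes in the 8 lists was higher. At that time 3.22% of all genes were lower in Cpeb4-/- and 4.69% were higher.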

How the data were processed

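Poly(A)-selected RNA of 40 BMDM libraries was sequenced. Per the paper's methods and the labels, the authors aligned reads to mm10 with STAR 2.3.0e, counted them per gene with featureCounts of Rsubread and normalized the counts with the rlog function of DESeq2. The deposited table holds these rlog values, on a log2 scale, 1 column per library and 27179 rows, of which 958 have no symbol and 6395 are at 0 in every library. No counts were used here, so depth per library is unknown and no counting error can be given. rlog shrinks low counts toward the mean, which understates the changes of weakly expressed genes.

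Genes whose rlog averaged 2.32 or more (the log2 of 5) over the libraries compared were tested with limma 3.58.1 (R 4.3.3, eBayes with trend), with Benjamini-Hochberg adjustment over all genes and a call at 0.05. Genotypes were compared at each time in 8 libraries (13008 to 13118 genes), times within a genotype in 20, and changes of the genotype difference in a model of 10 groups and 40 libraries (13103 genes). Estimates are given ± SE unless marked SD. Falls within a mouse used an exact permutation test (Python 3.11.15). The tests were tried on simulated data with known changes. Same-numbered libraries come from the same mouse: their deviations from the group means had a median correlation of 0.29 (68 of 80 pairs over 0.1). Between mice of 1 genotype at other times the median was -0.09. That value is no separate check, since deviations from a group mean cancel within the group. Replicates of a group correlated at 0.992 to 0.998, and none were identical. From unstimulated cells to 6 hr the median gene went from 9.08 to 8.91 in WT and from 9.08 to 8.92 in Cpeb4-/-. Quantile normalization removed that shift (9.01 to 9.00 in each).

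Alternatives were no filter, a minimum mean rlog of 5, eBayes without trend, quantile normalization, batch as a covariate, all 40 libraries in 1 fit, the mouse as a replicate block, and leaving out each mouse. The members and gene lists were chosen with earlier results of these data known. Named were all members, Cpeb4, in each pathway and target list the 3 called genes with the largest genotype difference at 6 hr and the 3 with the largest first-hour change in WT, and the 3 nonmembers most like each member over the 10 group means (1 of these is not reported here). Sequences came from RefSeq (GRCm38.p6) and GENCODE vM21 transcripts, both on the build of the table. The cage was not modelled, since no cage held both genotypes.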

Additional observations from a re-analysis of the deposited data

Results flagged for a closer look

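In 7 of 100 groups of 4 libraries, 1 library of a member stood apart from the other 3 by Dixon's ratio, and chance alone flags about 1 group in 20. Cpeb4-/- mouse 55 was high unstimulated for Nfkbia (13.53) and Nfkbib (10.42). Cpeb4-/- mouse 2 was high at 1 hr for Nfkbia (16.22) and low for Nfkbie (12.76). WT mouse 69 was high unstimulated for Nfkbie (10.87) and high at 9 hr for Nfkbib (11.82). WT mouse 87 was high unstimulated for Bcl3 (10.85). None of these groups is one in which a member was called between genotypes except Nfkbib at 9 hr, where the difference without WT mouse 69 was the smallest of the 8 leave-out fits (-0.31) and was not called.

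The genotype difference of Tnip3 changed by -0.42 from 0 to 6 hr and by -0.52 from 0 to 9 hr, each in a test of the change itself. The contrast of 6 with 3 hr was added after the values were seen, and gave -0.32 for Tnip3 and -0.27 for Bcl3. These calls were lost in 6 and 7 of the 8 fits without 1 mouse, and that of Bcl3 also under quantile normalization (adjusted p = 0.112).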

How the results depend on the processing

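Both late differences of Tnip3 stayed called in every alternative fit. Of 2113 values of single members under the alternatives, 1971 were scored as unchanged. A retested value was so scored if it kept its direction and its side of the threshold. A difference within a batch, which was not tested, was so scored if it lay within the larger group SD of the main value. An uncalled difference could turn its sign within a batch and still be so scored. The genes called between genotypes numbered 171, 251, 481, 2129 and 1029 at 0, 1, 3, 6 and 9 hr. Without the filter on low values they numbered 50, 53, 167, 1288 and 582. With all 40 libraries in 1 fit they were 326, 4182, 1311 and 2280 at 0, 1, 3 and 9 hr, and with the replicate block added 414, 4323, 1393 and 2378. Batch as a covariate gave 146, 194 and 1781 at 1, 3 and 9 hr, and no trend gave 230 at 3 hr. Leaving out single mice gave 44 to 163, 40 to 2440, 76 to 2584, 1347 to 2331 and 387 to 4575 at the 5 times. Genes whose genotype difference changed from 0 hr numbered 1, 27, 385 and 231 at 1, 3, 6 and 9 hr, and 121 between 3 and 6 hr. The replicate block gave 72, 1032 and 654 at 3, 6 and 9 hr and 392 between 3 and 6 hr. At 1 hr no filter gave 8 and a minimum mean rlog of 5 gave 0, and at 6 hr quantile normalization gave 227. Leaving out mice gave 0 to 2, 5 to 21, 84 to 391, 89 to 226 and, between 3 and 6 hr, 19 to 99. Quantile normalization turned the sign of the genotype difference of Nfkbia (0.014) and Tnip1 (0.066) at 3 hr and of Tnip1 at 6 hr (0.014). Among steps it turned in WT Cyld to 1 hr (-0.050) and from 3 to 6 hr (-0.012), Nfkbib from 1 to 3 hr (-0.042), and Tnip1 from 3 to 6 hr (-0.23) and from 6 to 9 hr (0.055). In Cpeb4-/- it turned Nfkbia (-0.10) and Nfkbie (-0.070) from 1 to 3 hr. It also turned the change of the genotype difference of Nfkbiz at 9 hr (0.0093) and of Bcl3 at 6 hr (0.021) and 9 hr (0.020), and the fall of Cyld (-0.036). Leaving out mice turned uncalled values only. These were the genotype differences of Nfkbid at 1 hr (-0.010 to 0.047), 3 hr (-0.024 to 0.075), 6 hr (-0.068 to 0.0016) and 9 hr (-0.091 to 0.019), Tnip1 at 3 hr (-0.046 to 0.025) and Bcl3 at 9 hr (-0.094 to 0.0048). The steps were Tnfaip3 in WT (-0.10 to 0.015) and Nfkbia in Cpeb4-/- (-0.0016 to 0.13) from 1 to 3 hr and Tnip1 in Cpeb4-/- from 3 to 6 hr (-0.032 to 0.023). The others were changes of the genotype difference of Tnip1 at 6 hr (-0.051 to 0.034) and of Nfkbiz (-0.044 to 0.020) and Bcl3 (-0.059 to 0.055) at 9 hr, and the falls of Nfkbia (-0.086 to 0.15) and Nfkbid (-0.13 to 0.014). The cause was not tested in any of these.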
